A study of Canis lupus familiaris with 33 samples.

Results

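The stomach list of methylated regions held 271400 autosomal peaks of its 283049 peaks, out of 3158680 autosomal peaks in the lists of 11 dog tissues. All peaks on autosomes 1 to 38 that shared at least 1 base were merged across the 11 lists into 450791 union regions, and 232837 of these, or 51.7%, contained a stomach peak. From the union, 816 regions, or 0.181%, had a peak in stomach and in no other tissue. A further 1414 had a peak in the other 10 tissues and none in stomach, which was 3.56% of the regions with a peak in exactly 10 tissues. A peak was present in all 11 tissues in 121528 regions.

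The tissues came from healthy adult beagles, 1 male and 2 females per the labels, and stomach was compared with colon, liver, pancreas, spleen, kidney, lung, cerebrum, cerebellum, ovary and mammary gland. Methylated DNA was collected by MBD-seq: genomic DNA was sheared to about 300 bp, 500 ng was bound to beads carrying a methyl-CpG-binding domain, and fragments released at salt concentrations of 600 and 800 mM were sequenced. Stomach had 2 MBD libraries, both labelled female, and 1 input library of DNA that was not captured. The labels name no experimental treatment. Both MBD libraries of a tissue share 1 deposited peak list, so every value below is 1 value per tissue with no replicate error. With 1 list against 10, the smallest exact p a rank could reach is 0.0909, so no rank was tested and all ranks among the 11 lists are descriptions.

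The labels limit what can be assigned to the tissue. All 11 tissues share 1 MBD identifier. The second MBD identifier of stomach is used in colon alone. The titles carry 4 identifiers for 3 dogs, so this identifier may stand for a dog that other tissues share under another name, which the labels do not settle. An effect of the animals and an effect shared by stomach and colon cannot be told apart. The identifier of the stomach input differs from both stomach MBD identifiers, and whether it names a different dog is equally unclear. That input is labelled female, whereas MBD libraries of other tissues with the same identifier are labelled male.

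Cytosine methylation at CpG dinucleotides is laid down and copied by DNA methyltransferases, is removed during differentiation at many enhancers and some promoters, and is widespread over gene bodies and repeats. The stomach wall combines gastric glands, with mucous, acid-secreting, enzyme-secreting and hormone-secreting cells, with connective tissue, enteric neurons, blood cells and layers of smooth muscle. A peak from such a mixed tissue is therefore an average over the cell types sampled. A methylated fraction of cells and the methylation within a cell cannot be told apart. MBD capture also favours fragments with several methylated CpGs, so a missing peak does not show unmethylated DNA. The names of genes at these regions were not analysed here, because no annotation of the build of the lists, CanFam3.1, was used.

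Stomach peaks were strong and narrow beside those of the other tissues. The deposited fold enrichment had a median of 8.80 over the autosomal stomach peaks, the highest of the 11 lists, with the others running from 6.19 in lung to 8.17 in colon. The median −log10 p of 31.9 was also the highest, above 30.8 in pancreas. Median peak width was 298 bases, above only pancreas at 297 bases. To set lists side by side, each fold was divided by the median fold of its own list, and this scaled fold is used from here on, with 1 as the typical peak of a list. The list itself was of middling length, as 4 of the other lists held fewer autosomal peaks.

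Regions found in stomach alone were few. Only pancreas had fewer than the 816 of stomach, at 418. The other 10 tissues had a median of 3382 such regions and reached 26412 in ovary and 35015 in cerebellum. Regions missing from stomach alone were also few: of the 39706 regions found in exactly 10 lists, 1414 had stomach as the missing one. That was the lowest count of the 11 tissues, although cerebrum at 1428 lay next to it, and cerebellum reached 13152.

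Stomach was thus near the bottom of both orders, whereas cerebrum, liver and kidney had few missing regions and more of their own, and pancreas the opposite. The low place for stomach-only regions was kept when all lists were cut to the same number of peaks, with 1022 in stomach, 984 in pancreas and a median of 4178 in the others. The place for missing regions was less fixed. It was second lowest with lists of equal size, at 1175 against 1089 in mammary gland, and 3 tissues were lower, stomach being at 1952 and cerebrum at 1235, when a tissue had to cover at least 50% of a region to count as present. Both counts depend on which tissues stand opposite stomach: without colon, the tissue with the same MBD identifiers, there were 1090 stomach-only and 1998 stomach-lacking regions.

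**Figure D1:**
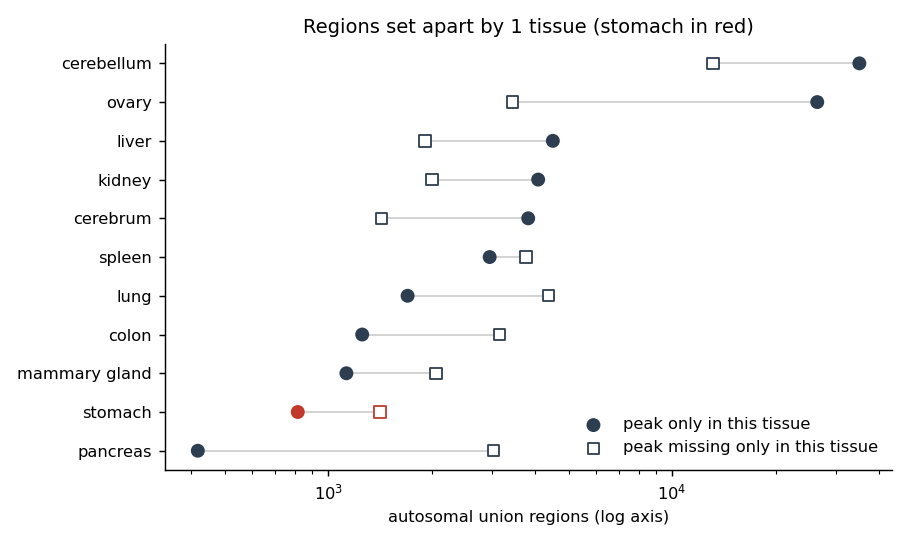
Autosomal union regions with a peak in only 1 tissue (filled circles) and regions with a peak in all tissues but 1 (open squares), for each of the 11 tissues on a log axis; stomach is in red. Stomach had 816 regions of its own and lacked 1414, so that both symbols lie toward the left of the plot.

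The stomach list followed the sharing of regions across tissues closely. Among regions with a peak in only 1 tissue, 0.994% were of stomach, against an equal share of 9.09%. The share of regions holding a stomach peak then rose to 16.9% of the regions in 4 lists, 43.5% of those in 6, 87.5% of those in 9 and 96.4% of those in 10. In regions of few lists stomach was among the lowest tissues, in ninth place for those in 2 to 6 lists. In regions of 10 lists it had the highest share, next to 96.4% in cerebrum. Of all regions with a stomach peak, 52.2% were present in all 11 tissues.

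**Figure D2:**
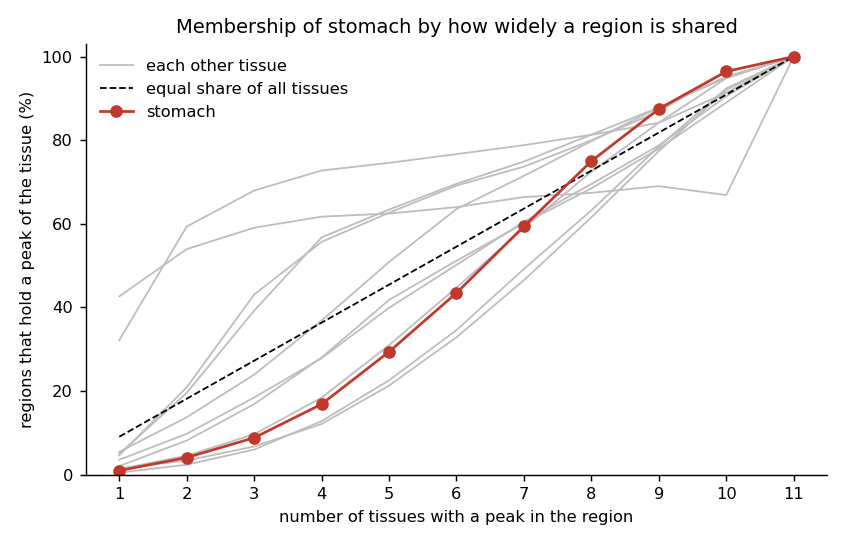
Percentage of union regions that hold a peak of each tissue (vertical axis) by the number of tissues with a peak in the region (horizontal axis), with stomach in red, the other tissues in grey and the equal share as a dashed line. The stomach curve runs below the equal share up to regions of 7 tissues and above it at 8 to 10.

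Enrichment rose along the same axis. The median scaled fold of stomach was 0.520 in regions that no other tissue shared, 0.576 in regions of 4 lists, 0.683 in those of 8, 0.913 in those of 10 and 1.49 in those of all 11. Median region width rose with it, from 210 bases for stomach-only regions to 798 bases for regions of all tissues. Width and fold moved together here, and a region merged from more lists is wider by construction.

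The 816 stomach-only regions were short, weak peaks. Their median width was 210 bases, with a range of 185 to 801, close to the shortest peak in the list at 185 bases. Their median deposited fold was 4.58, their median −log10 p was 9.86, and only 12 of them, or 1.47%, had at least the median fold of the list. The median scaled fold of 0.520 was the lowest among the 11 tissues, where the others ranged from 0.563 to 0.670. Before scaling, the median fold of 4.58 was instead the second highest, below 4.81 in colon, because the stomach list has the highest median to divide by. These regions together covered 0.188 Mb. A stomach-only region lay a median of 1453 bases from the nearest other union region, and 41.3% lay within 1000 bases of one, against 1141 bases and 46.4% for regions of any 1 tissue only.

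The strongest stomach-only region was a peak of 382 bases at chr31:30057059-30057440, with a deposited fold of 13.4, a scaled fold of 1.52 and a −log10 p of 52.9. The next 2 were chr7:30874021-30874361, with a scaled fold of 1.41 over 341 bases, and chr36:16487950-16488478, also at 1.41, over 529 bases. All 3 were thus well above the typical stomach peak and had no peak in any of the other 10 lists. The fourth, chr2:65057882-65058245, reached 1.25 but lay only 34 bases from a neighbouring union region. A pair of neighbours on chromosome 34 came next, chr34:14866566-14867264 at 1.17 and chr34:14865875-14866457 at 1.10, separated by 108 bases. The region chr31:31890149-31890850, at 1.09, was 702 bases wide. The other 3 of the 10 strongest were on chromosomes 3, 14 and 26, with scaled folds from 1.04 to 1.09. Of the 10, 8 were again in stomach alone when peaks within 200 bases were merged.

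With neighbours joined across gaps of up to 50 kb, 745 of the 816, or 91.3%, stood alone, and 5 groups held 3 or more. So high a share alone goes with the small number of regions, here and for the regions stomach lacked. The largest group was 5 regions within chr31:31872273-31893424, a span of 21152 bases. Their scaled folds were 0.60, 0.34, 0.46, 1.09 and 0.54, so 1 stronger peak was accompanied by 4 weak ones. Of the 12 union regions in that span 10 had a stomach peak, and none was shared by all tissues. A group of 4 lay within chr36:19889711-19924524, where 6 of 12 union regions had a stomach peak, and another of 4 within chr27:1203780-1262249, where 15 of 26 did. The remaining groups, of 3 regions each, were at chr14:40330314-40340011 and chr37:11418497-11439037. In all but the chromosome 27 group, no region of the span was shared by all 11 tissues.

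Regions with a peak in exactly 1 further tissue show which lists shared rare peaks with stomach. There were 1873 such pairs, led by 349 with ovary and 246 with colon, followed by 232 each with cerebellum and mammary gland, 203 with liver and 169 with spleen. The lowest count was 78 with cerebrum. Read as a share of the other tissue's own 2-tissue regions, the order was different. Stomach was the partner in 15.9% of those of colon, 11.2% of those of pancreas and 11.2% of those of mammary gland, against 0.821% to 3.80% in the remaining 7 tissues. Colon, pancreas and mammary gland also had the fewest such regions, at 1549, 1096 and 2073, against 3722 to 26979 elsewhere. The part of these small numbers in the shares was not tested. The high count with ovary thus went with a long ovary list, in which stomach was the partner of 1.29% of 26979 such regions.

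The 1414 stomach-lacking regions were wider than those lacking in most other tissues. Their median width was 505 bases, second to 554 in cerebellum, with the rest from 352 to 469 bases. In the 10 tissues that had the peak, it was modest: the median of the others' scaled fold was 0.822, the lowest of the 11 tissues, against 0.882 to 1.09 elsewhere. In 169 regions, or 11.95%, the others' median reached 1, against 42.9% of the regions lacking in any 1 tissue. That pool includes 13152 regions lacking in cerebellum and 3435 lacking in ovary, where the median level of the others was 1.09 and 1.05. In the remaining tissues other than stomach it was 0.882 to 0.932. The nearest region with a stomach peak lay a median of 1302 bases away, and within 1000 bases for 44.6%.

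The levels of the other tissues in these regions were uneven. The median scaled fold in the stomach-lacking regions was lowest in pancreas, at 0.665, and colon, at 0.671, followed by mammary gland at 0.738 and spleen at 0.770. It was highest in ovary, at 1.11, and cerebellum, at 1.05. Before scaling the order differed, since lung, at a median fold of 4.93, spleen, at 5.04, and mammary gland, at 5.09, lay below pancreas, at 5.32, and colon, at 5.48. Pancreas was the lowest of the 10 in 22.9% of the regions and colon in 21.0%, against 1.98% for ovary. Of the 3126 regions missing in stomach and exactly 1 other tissue, 614 were also missing in pancreas and 584 in colon, followed by lung, at 12.5% of them, and by 388 in cerebellum, 365 in spleen and 326 in mammary gland, while 93 were also missing in cerebrum and 94 in ovary. These were 11.4% of the pancreas regions and 10.4% of the colon regions that were missing with a partner, against 8.27% in mammary gland, 7.14% in lung, 6.89% in spleen and 2.38% to 5.11% in the remaining 5 tissues. On the scaled fold and in the count of joint absences, pancreas and colon were thus nearest to stomach here. Colon had the shortest list, at 251352 autosomal peaks, and pancreas the third shortest, at 257860, and colon has the same MBD identifiers as stomach. The part of list length and of the animals in this was not tested.

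The stomach-lacking region with the strongest peaks elsewhere was chr2:30450949-30451390, 442 bases wide, where the 10 other scaled folds had a median of 1.37 and ran from 0.73 in lung to 2.51 in spleen, with colon at 2.08. A nearly equal median of 1.37 was found at chr17:41110339-41110671, with 0.71 in mammary gland and 1.96 in liver. The region chr3:39940179-39940691 followed at a median of 1.29, with 0.58 in colon and 1.77 in liver. Absence in stomach at the first of these was thus set against a strong colon peak, and at the third against a weak one. The other 7 lay on chromosomes 5, 6, 12, 21, 24 and 31, with medians from 1.26 to 1.29, and the widest was chr21:49957467-49958574, at 1108 bases, with 2.57 in cerebellum and 0.53 in mammary gland. In each of the 10 at least 1 other tissue was below its own list median. None of the 10 therefore still had peaks in all 10 other tissues when only the upper 50% of each list was used.

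Of the stomach-lacking regions 1241, or 87.8%, stood alone with gaps of up to 50 kb, and 3 groups held 3 regions. In the group at chr10:12801055-12843881, 3 of 16 union regions had a stomach peak, and those 3, shared by all tissues, had a median log2 ratio of -0.79 in stomach, against -0.44 in pancreas and 0.58 in cerebrum. At chr26:34499153-34552432, 1 of 21 union regions had a stomach peak, and at chr6:900186-950924, 8 of 16 did. The chromosome 10 and 26 spans were thus poor in stomach peaks beyond the 3 regions that named them.

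In the 121528 regions with a peak in all 11 tissues, stomach was compared with the median of the other 10 on the scaled fold. The median log2 ratio was 0.01, and 87.0% of the regions were within 1.5 times of the others. Stomach was at least 1.5 times higher in 4073 regions, or 3.35%, and at least 1.5 times lower in 11746, or 9.67%. The values beside the threshold were 1.5002 inside and 1.4999 outside. Lower calls were 2.88 times as many as higher calls, a ratio exceeded only by pancreas, at 4.67. Against only the other lists whose shortest peak was below 200 bases, 6.095% of shared regions were higher, with 8966 higher and 14375 lower calls.

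The distribution was the narrowest of the 11 tissues, with an SD of 0.395 on the log2 scale, just under 0.398 in kidney and far from 0.638 in cerebellum. It was second narrowest, after colon, with quantile normalization or with −log10 p in place of fold, and 2 tissues were narrower where only regions with 1 peak of every tissue were used. High ratios were rare. A ratio of 2 or more was reached by 79 regions in stomach, against 169 in pancreas, the next lowest, and 4155 in mammary gland, and none reached 3. On −log10 p in place of fold, colon had a lower percentage of such regions, 0.493% against 0.580%. Low values were closer to the other tissues: 2215 regions were at least 2 times lower, against a median of 2642.5 for the others, and 84 were at least 3 times lower. Stomach was above all 10 others in 5666 shared regions, or 4.66%, and below all of them in 8792, or 7.23%.

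**Figure D3:**
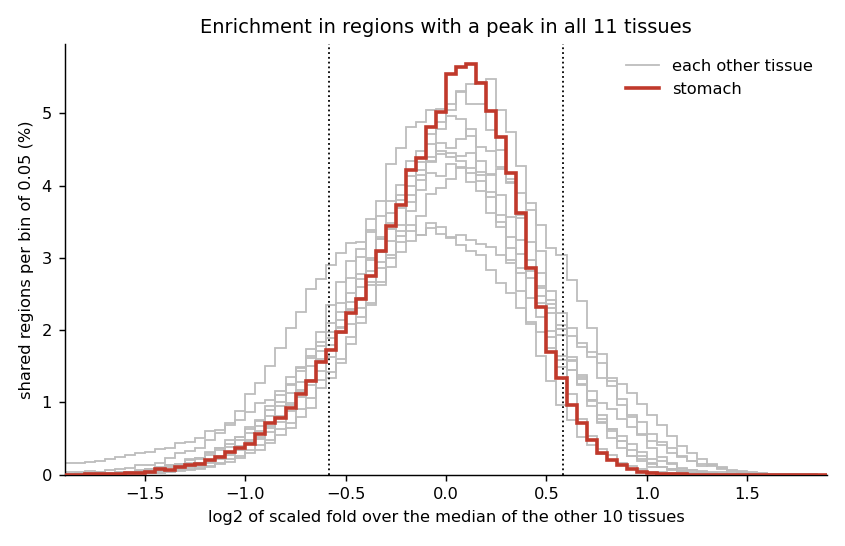
Percentage of the 121528 shared regions by log2 ratio of a tissue's scaled fold to the median of the other 10 (bins of 0.05), with stomach in red, each other tissue in grey and dotted lines at a ratio of 1.5 in either direction. The stomach curve has an SD of 0.395, the lowest of the 11, and its right tail beyond the dotted line holds 3.35% of regions against 9.67% beyond the left one.

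The share of calls varied with the level of the region in the other tissues, which is also the denominator of the ratio. The part of this shared term in the pattern was not tested. In the decile of shared regions with the lowest level in the other tissues, 14.9% were lower and 5.28% higher in stomach. In the decile with the highest level, 4.17% were lower and 0.280% higher. The median log2 ratio moved from -0.09 in the lowest decile to 0.11 in the ninth and 0.06 in the highest. The shift of the median was small beside the SD over all shared regions, given above.

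Stomach peaks covered less of the shared regions than those of most tissues, as did peaks of pancreas, at 71.6%, spleen, at 74.9%, and colon, at 76.3%. The median coverage in stomach was 74.5% of a region, or 504 bases, against 81.6% and 597 bases for the median of the others, and stomach was the narrower in 85.0% of regions. In regions called lower the coverage was 62.7% against 78.9%, and stomach was narrower in 96.2%. In regions called higher the 2 were alike, at 81.54% and 81.03%. In higher regions stomach was the narrower in 52.0%, so coverage relative to the other tissues moved with fold in both directions.

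Colon was the tissue whose scaled folds ran closest to those of stomach. Across the 121528 shared regions the Pearson correlation of log2 values was 0.827 with colon, 0.817 with mammary gland, 0.814 with lung and 0.790 with pancreas, and 0.497 with cerebellum, the lowest. These are correlations across regions, which share libraries, base composition and at least 1 animal, and they carry no test. The tissue with the same MBD identifiers was thus first in the order, by a small margin. In 78.7% of regions stomach and colon were within 1.5 times of each other. On this measure the order after colon was different. Pancreas followed at 76.0%, spleen at 74.5% and kidney at 74.4%, ahead of lung at 72.6% and mammary gland at 71.2%.

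Among the 11746 regions lower in stomach, the lowest of the other tissues was pancreas in 17.4%, against 11.2% in all shared regions, and colon in 13.7%, against 9.07%. Pancreas was itself at least 1.5 times below its own comparison in 21.4% of them, against 13.4% in all shared regions, and colon in 16.2%, against 9.59%. The share was also higher in mammary gland, at 13.1% against 8.94%, spleen, at 12.8% against 9.89%, and lung, at 10.3% against 7.36%. The remaining tissues went the other way. Ovary was at 10.5% against 21.0%, cerebellum at 12.7% against 18.8%, and cerebrum at 7.08% against 11.7%. Liver was at 10.0% against 12.9%, and kidney at 5.99% against 6.70%. Among the 4073 regions higher in stomach, colon was also called higher in 12.6%, against 3.97% in all shared regions, and pancreas in 5.89%, against 2.87%. Mammary gland, at 22.3% against 15.7%, lung, at 20.4% against 14.4%, and spleen, at 12.8% against 7.29%, were also called higher more often there. The same held for kidney, at 9.33% against 6.94%, and cerebellum, at 14.2% against 13.6%. Ovary was called higher less often, at 5.25% against 10.5%, as were cerebrum, at 6.87% against 7.48%, and liver, at 7.37% against 7.67%. Each tissue's ratio has stomach among its 10 comparators, so these shares describe the regions and are no independent evidence of a joint change. Without colon, 10.6% of shared regions were lower and 4.05% higher in stomach.

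The lowest ratio among the shared autosomal regions was 0.174, at chr21:48046365-48048787, a region of 2423 bases. Stomach had a scaled fold of 0.27 there, and the others ran from 0.60 in kidney over a median of 1.54 to 2.45 in lung. The ratio was 0.297 among the lists whose shortest peak was below 200 bases and 0.0776 on −log10 p. At chr34:9727571-9728326 the ratio was 0.199, with 0.23 in stomach and 0.53 in colon to 1.66 in cerebellum. Stomach was below every other tissue in both, and in both the colon value was in the lower part of the range. A second region of chromosome 34, chr34:11872249-11873326, had a ratio of 0.222 at a higher general level, with 0.53 in stomach, a median of 2.37 in the others and 1.27 in colon, the lowest of them.

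The remaining 7 of the 10 lowest lay on chromosomes 1, 3, 8, 15, 17 and 36, with ratios from 0.219 to 0.261. At chr36:28852993-28853844 stomach had 0.53, where the others ran from 1.37 in mammary gland to 2.64 in colon, so stomach was set apart from colon as well. At chr8:69498152-69498730 stomach had 0.30, next to 0.42 in pancreas. In all 10, stomach was below all other tissues. All 10 were again at least 1.5 times lower under the other scalings, on −log10 p and with each tissue left out. They were picked as the lowest ratios, far from the threshold, so most of these changes could hardly have undone the call.

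**Figure D4:**
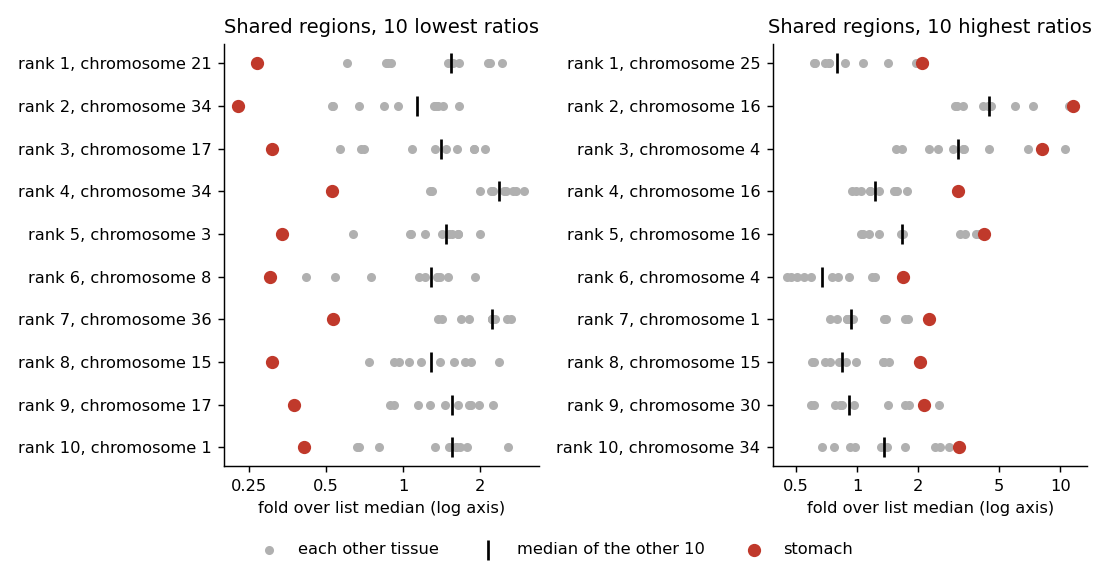
Scaled fold (fold divided by the median of its list, log axes) in the 10 shared regions with the lowest ratio of stomach to the others (left) and the 10 with the highest (right), 1 row per region with its chromosome; red is stomach, grey dots are the other tissues and the bar is their median. Stomach lies outside the range of the others in 10 of 10 regions on the left and in 7 of 10 on the right.

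The highest ratio was 2.61, at chr25:12794089-12794775, where stomach had a scaled fold of 2.09 and the others a median of 0.80. Colon, at 2.13, was slightly above stomach there and spleen, at 1.95, slightly below, so this region was high in 3 tissues. Against only the 5 other lists whose shortest peak was below 200 bases, which include colon and spleen, its ratio was 1.47, under the threshold. The region at chr16:1115125-1129232, with a ratio of 2.60, was unusual in its size, at 14108 bases with 4 stomach peaks. Its deposited stomach fold of 102 was the largest stomach fold in any shared region, and its scaled fold was 11.6, against 3.02 in cerebrum, a median of 4.46 and 10.98 in lung. The ratio there was 1.31 with −log10 p in place of fold, under the threshold. At chr4:10462881-10463900 stomach had 8.15 and the median of the others was 3.15, but lung, at 10.6, exceeded stomach and colon reached 6.91.

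Stomach stood further from the rest at chr16:10474743-10475880, with 3.15 against at most 1.76, in colon, and a ratio of 2.57. At chr4:21861590-21862312 it had 1.68 against at most 1.23, in cerebrum, and at chr15:26925433-26925770 it had 2.05 against at most 1.44, in liver. In these 3 regions stomach was above every other tissue by a wider margin. At chr16:13961380-13962568, by contrast, stomach at 4.22 was followed by kidney at 3.97, pancreas at 3.85 and colon at 3.41. The rest of the 10 lay on chromosomes 1, 30 and 34, with ratios from 2.33 to 2.43, and colon was above stomach in the chromosome 30 region, at 2.53 against 2.14.

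Regions called lower lay next to each other more often than regions called higher. With gaps of up to 10 kb, 8614 of the 11746 lower regions, or 73.3%, stood alone, as did 3735 of the 4073 higher ones, or 91.7%. The sets differ in size, and denser sets have closer neighbours. Groups of 3 or more numbered 294 among lower regions, with 5 groups of at least 6, and 6 among higher ones, none with more than 3.

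The largest group, at chr19:50275153-50301485, had 7 lower regions among 14 shared ones over 26333 bases. Their ratios lay between 0.522 and 0.659, and 2 other shared regions of the span were called higher, so stomach was not uniformly low there. The median log2 ratio over the shared regions of the span was -0.53 in stomach, -0.37 in liver and 0.29 in pancreas. At chr6:41527872-41547571, 6 of 8 shared regions were lower, with a median of -0.88 in stomach, -0.27 in colon and 0.48 in lung. At chr11:69059800-69091000, 6 of 9 were lower, with -0.61 in stomach and -0.36 in colon, and at chr5:14109488-14128322, 6 of 10, with -0.62 and -0.18. The fifth group, at chr1:49048160-49090346, had 6 of 12, with -0.45 in stomach and 0.09 in colon. Stomach had the lowest median of the 11 tissues in all 5 spans, which were chosen for their lower calls.

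In windows of 1 Mb, stomach stayed close to the other tissues. Of 2219 windows, 1673 held at least 20 shared regions, and their median log2 ratios had an SD of 0.09, the lowest of the 11 tissues beside pancreas, also at 0.09, and below 0.21 in cerebellum. Stomach had the lowest median of the 11 tissues in 58 windows, or 3.47%, and the highest in 55, or 3.29%. The medians ran from -0.41 to 0.28, with 19 windows below -0.2 and 27 above 0.2.

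The lowest window was chr5:35000001-36000000, with a median log2 ratio of -0.41 over 66 shared regions, 22 of them lower and 1 higher. Colon at -0.25 and mammary gland at -0.24 were also low there, and cerebellum at 0.30 was high. The window at chr1:22000001-23000000 had a median of -0.34 in stomach and -0.26 in colon, with 15 of 44 regions lower. At chr7:15000001-16000000 the median was -0.35 over 21 regions, of which only 2 were lower, next to -0.34 in pancreas. The share of lower regions was highest at chr11:69000001-70000000, at 14 of 39, or 35.9%, and that window contains the chromosome 11 group above. Among the 5 lowest windows, colon or pancreas was the second lowest tissue in each, but 1 of these was also the lowest tissue in 4 of the 5 highest windows. The highest window, chr18:15000001-16000000, had a median of 0.28, with mammary gland at 0.20 and pancreas lowest at -0.23.

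**Figure D5:**
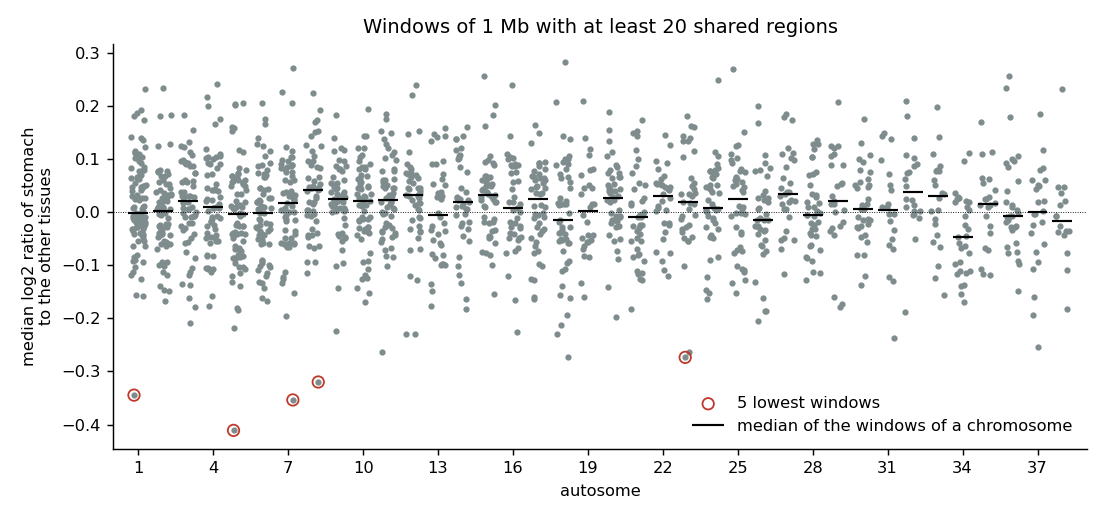
Median log2 ratio of stomach to the median of the other 10 tissues in each of 1673 windows of 1 Mb with at least 20 shared regions (points, spread sideways for visibility), by autosome, with the median over the windows of each autosome as a bar and the 5 lowest windows circled. Most windows lie near 0, and the lowest, on chromosome 5, is at -0.41.

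The chromosomes differed in density more than in the balance of calls. Stomach peaks covered from 1.88% of chromosome 32 to 10.5% of chromosome 9, and the median peak width ran from 253 bases on chromosome 32 to 329 on chromosome 31. Stomach-only regions per 1000 regions with a stomach peak ran from 1.78 on chromosome 13, which had 10 of them, to 7.33 on chromosome 32, which had 17, with a median of 3.46. Chromosome 32 thus combined the sparsest stomach peaks with the most stomach-only regions for their number. Among regions of exactly 10 lists, stomach was the missing one in 2.33% on chromosome 9 and 5.28% on chromosome 34, where it was 34 of 644. The percentage of shared regions called lower ran from 7.78% on chromosome 31 to 11.5% on chromosome 26, and that called higher from 2.52% on chromosome 33 to 4.58% on chromosome 11. The median log2 ratio of a chromosome lay between -0.02, on chromosome 34, and 0.04, on chromosome 27.

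Dog autosomes are acrocentric, so their first bases lie by the centromere and their last by a telomere. Stomach-only regions were sparse at both ends: 7.84% lay in the first 5 Mb and 8.58% in the last 5 Mb of a chromosome, counted back from its last union region, the lowest percentages of the 11 tissues at either end, against 10.1% and 13.0% of all union regions. The lowest place was narrow, as kidney had 7.99% at the first end and lung 8.87% at the last. Regions with a peak in any 1 tissue only were at 8.87% and 10.5%, so part of that gap was common to single-tissue regions. Stomach-lacking regions were at the opposite extreme, with 11.8% in the first and 14.9% in the last 5 Mb, the highest of the 11 at either end, against 10.5% and 11.6% of regions lacking in any 1 tissue. The tissues lay close together here, since pancreas had 11.6% at the first end and lung 13.7% at the last. Of the shared regions, 17.9% were in the last 5 Mb, as were 17.5% of those lower and 12.5% of those higher in stomach. Only liver, also at 12.5%, had fewer of its higher regions in the last 5 Mb, while mammary gland had 26.1%.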

How the data were processed

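Per the labels, 33 libraries were made: 22 MBD libraries, 2 per tissue, and 11 inputs, 1 per tissue. The 11 peak lists were used as deposited. Each deposited peak had a score, a fold enrichment, a −log10 p and a summit offset, among other columns, read by their places in the narrow-peak format. Coordinates are those of CanFam3.1, per the submitters' processing notes, written 1-based. The aligner, the peak caller, its control and filters, and the way both libraries of a tissue were combined are not given in the sources used here, so read depth is unknown.

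Autosomal peaks sharing at least 1 base were merged with Python 3.11.15, numpy 2.4.6 and pandas 2.3.3, and plotted with matplotlib 3.10.9. A tissue's value in a region was its highest fold, divided by the median fold of its autosomal peaks. Calls used a ratio of 1.5 to the median of the other 10 tissues. Regions named were the 10 strongest of each kind (stomach-only by scaled fold, stomach-lacking by the others' median, shared by highest and lowest ratio), the groups with most regions (gaps of 50 kb, or of 10 kb for shared regions) and the extreme windows. The scripts were tested on simulated data. Lists of genes and cell type markers drawn up for this tissue were not used, since genes at the regions were not analysed here, and no sequence was read. The comparisons, and the lists, were chosen with earlier results of these data known. Alternatives changed the list threshold, list size, overlap, merging, scaling, measure and the tissues compared.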

Additional observations from a re-analysis of the deposited data

Results flagged for a closer look

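The tissues were grouped by the identifier of their input library, 7 with that of the stomach input and 4 with the other. As given above, it is unclear whether 1 identifier names 1 dog throughout. In 22 sets of values, Dixon's gap test was used to search for a tissue far from the rest of its group. It sets the gap to the nearest value against the range of the group. Chance alone marks about 1 set in 20 if the values of a set are independent and normally distributed. The values here are of different tissues, and the regions a tissue has alone or lacks depend on the other lists. The rate is therefore not known to hold, and the marked values are descriptions. The median scaled fold of stomach-only regions, 0.5205, stood apart from the other 6 tissues of its group, whose nearest value was 0.589 in colon. Before scaling, the median fold of these regions, 4.58, was instead below only that of colon, at 4.81. The same measure in pancreas, of the other group, was 0.563.

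The remaining values of this kind belonged to the tissues stomach was compared with. Cerebellum had 35015 regions of its own (nearest value 4500), lacked 13152 (nearest 4367), and the regions it lacked had a median level of 1.089 in the other tissues (nearest 0.932). Ovary had 26412 regions of its own (nearest 4079), and the regions of pancreas alone had a median width of 197 bases (nearest 253.5).

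Chromosome X was outside the comparisons. It had 24 stomach-only regions of 21367, or 0.112%, and stomach was the missing tissue in 81 of its 1471 regions of exactly 10 lists, or 5.51%. The other tissues had from 21 (pancreas) to 1810 (cerebellum) X regions of their own and lacked from 36 (mammary gland) to 308 (kidney). Both MBD libraries were labelled female in stomach, colon, mammary gland and ovary, and 1 male and 1 female in the others.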

How the results depend on the processing

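No paired analysis was possible because each tissue has 1 peak list. With each other tissue left out in turn, stomach-only regions numbered 900 to 1173, stomach-lacking regions 1524 to 2028, and 3.316% to 4.302% of shared regions were higher and 9.48% to 10.85% lower. Fewer lists make both kinds of 1-tissue region more frequent by construction: among the 7 tissues with the same input identifier there were 2502 stomach-only and 3288 stomach-lacking regions, and without cerebellum and ovary 1590 stomach-only ones. The upper 50% of each list gave 768 stomach-lacking regions, among them 0 of the 10 named, and 872 stomach-only ones, so that stomach-only regions were the more numerous, the reverse of the full lists; 2 tissues then had fewer regions of their own than stomach. With −log10 p in place of fold, 5.172% were higher and 14.72% lower. In a comparison of the 6 lists whose shortest peak was below 200 bases, 6.095% were higher, and 38.4% of calls were in that direction against 25.8% in the main comparison; the cause was not tested. Of 334 other values of the named shared regions, 321 stayed within 1.5 times of the main value, 13 moved further and none changed sides of a ratio of 1. These regions were picked for extreme ratios, and leaving out 1 tissue or changing the scaling could move most of them little. The counts are therefore no independent support. Read depth, which would set the weakest peak each list can hold, is unknown.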
